A study of Mus musculus with 38 samples.

Results

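Tissue of the AOM model on control diet was compared with tissue of the Apc model on the same diet, over 12 of the 38 libraries of a mouse study of black rice in models of colorectal cancer. The 12 libraries were taken by their labels: 6 AOM libraries and 6 Apc libraries with the treatment entry control, each arm holding 3 libraries with the letter F and 3 with the letter M in their titles. AOM is the usual abbreviation of azoxymethane, an alkylating carcinogen used to raise colon tumours in rodents, but the sources used here do not spell it out. Apc is the gene whose product keeps β-catenin low, and the labels give the model that name without an allele, a strain, an age or a promoter. All libraries are messenger RNA of the intestinal tract per the labels, and the columns of the Apc table carry the name Colon. The labels do not say how much tumour a piece of tissue held, or whether each library came from 1 animal, so the p-values measure the spread between these libraries. Each model was deposited as a table of its own, so model and sequencing set cannot be told apart in any AOM against Apc difference given here. Other libraries served only to place the levels: 6 libraries of the Apc set labelled WT with no treatment entry, 4 control libraries of the third table, whose name holds the letters FMT and which is called the third set here, and the 11 usable black rice libraries of both models.

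In the intestine, Wnt ligands keep stem cells at the crypt base dividing by letting β-catenin reach the nucleus, where it works with TCF and LEF factors on target genes. The pathway brakes itself, since several targets encode secreted or cytoplasmic inhibitors such as Notum, Wif1, Dkk2, Nkd1 and Apcdd1. Loss of Apc, or a mutation that stabilises β-catenin, releases the pathway, and both kinds of mouse model are known for tumours with high Wnt target expression. Colon normally lacks Paneth cells, the defensin-secreting cells of the small intestinal crypt base, whose genes also respond to Wnt.

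Depth was 44.8 to 61.9 M reads in the Apc libraries and 37.9 to 55.1 M reads in the AOM libraries. On a multidimensional scaling plot the first dimension placed the 6 AOM libraries between 1.17 and 2.37 and the 6 Apc libraries between -1.75 and -1.42. Epithelial markers of the intestine were high in both arms: Epcam, an adhesion protein of epithelial cells, lay between 1084 and 1461 CPM (counts of reads relative to library size, scaled with TMM factors) in AOM and between 884 and 1453 CPM in Apc. The second dimension held a split within the Apc arm. Apc F 1 and M 3 had 0.432 and 0.733 CPM of Hoxb13, a marker of the distal colon, where the other 4 Apc libraries had 163 to 294 CPM and the AOM libraries 13.1 to 196 CPM. 1 gene without a symbol (ENSMUSG00000119584) took 2.59 to 6.65% of the reads of AOM libraries and 0.0892 to 0.194% of those of Apc libraries. AOM minus Apc differences also moved with base composition. Over 5 equal bins of protein-coding genes, from the lowest transcript GC content to the highest, the median log2 difference went from -0.28 to 0.24 on control diet and from -0.47 to 0.35 in black rice libraries. The part of depth, position along the gut and base composition in the differences was not tested beyond the refits named beside each list.

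**Figure D1:**
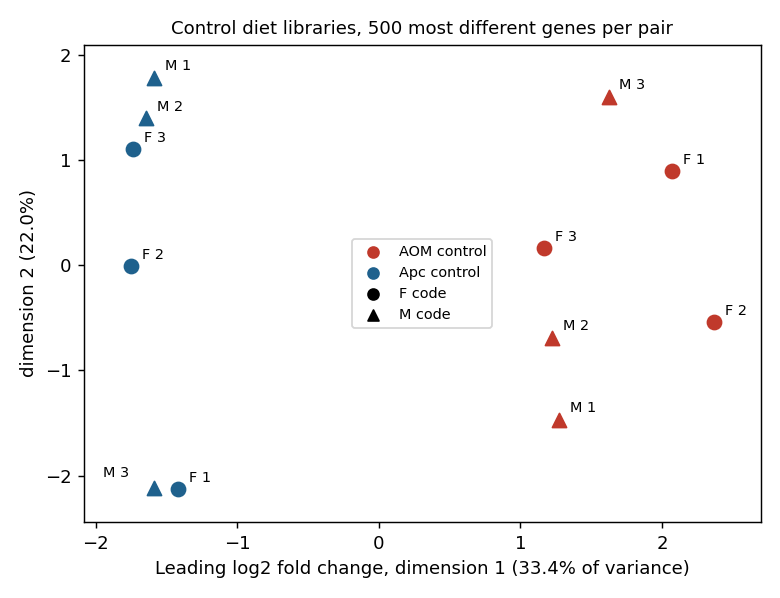
Multidimensional scaling of the 12 control diet libraries, with the leading log2 fold change on both axes (dimension 1 with 33.4% and dimension 2 with 22% of the variance), colour for the model and shape for the letter. AOM libraries lie to the right and Apc libraries to the left, and Apc F 1 and M 3 lie apart from the other 4 Apc libraries on dimension 2.

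**Figure D2:**
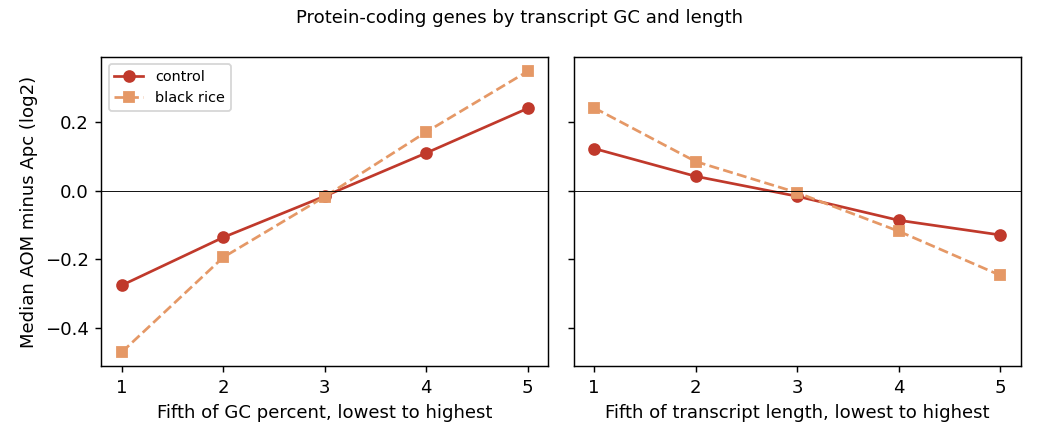
Median AOM minus Apc log2 difference of protein-coding genes (vertical axis) over 5 equal bins of transcript GC content (left) and transcript length (right), for control and black rice libraries. The control medians go from -0.28 to 0.24 with rising GC content, and from 0.12 to -0.13 with rising length.

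edgeR's quasi-likelihood test, averaged over the F and M libraries, called 5600 of 21611 genes at a Benjamini-Hochberg adjusted p under 0.05, which is 25.9%. Of these 3163 (14.6% of all tested) were higher in AOM and 2437 (11.3%) lower. A difference of more than 2-fold was held by 1736 of the higher and 797 of the lower genes. Among all 21611 genes tested, called or not, all 6 AOM libraries lay above all 6 Apc libraries for 1571 and below them for 868 (11.3% in sum). The lists below stand against these shares of 14.6% and 11.3%, and against a median of -0.0037 over all genes tested. Every list is a description of its members: they were chosen with earlier results of these data known. Paneth, squamous and cholesterol synthesis genes held the highest shares of members called higher, at 10 of 11, 10 of 13 and 15 of 23. T and NK cell genes, hepatocyte genes, endothelial genes, aryl hydrocarbon receptor genes and clock genes of the Bmal1 phase held the highest shares called lower. Of genes called with the same sign in F and M and without overlap, the largest differences above a mean log2 CPM of 1 were those of T (at least 752-fold), Notumos (a ratio of 411) and, as log2 differences, Defa24 (8.73), Notum (7.55), Onecut2 (7.47), Khdc1a (7.17), Mt4 (7.13), Lgr6 (7.0), Adcy8 (6.83), Wnt10a (6.75), Pnliprp1 (6.74) and AL805899.1 (6.47) in the higher direction. In the lower direction they were those of Hpx (-4.15), Cd163 (-3.99), Saa2 (-2.98), Mmrn1 (-2.66), P2ry4 (-2.61), Sstr1 (-2.35), Calcrl (-2.28), Cldn1 (-2.28), Ces1d (-2.27), Klhl4 (-2.21), Jchain (-2.14) and Plscr2 (-2.14).

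**Figure D3:**
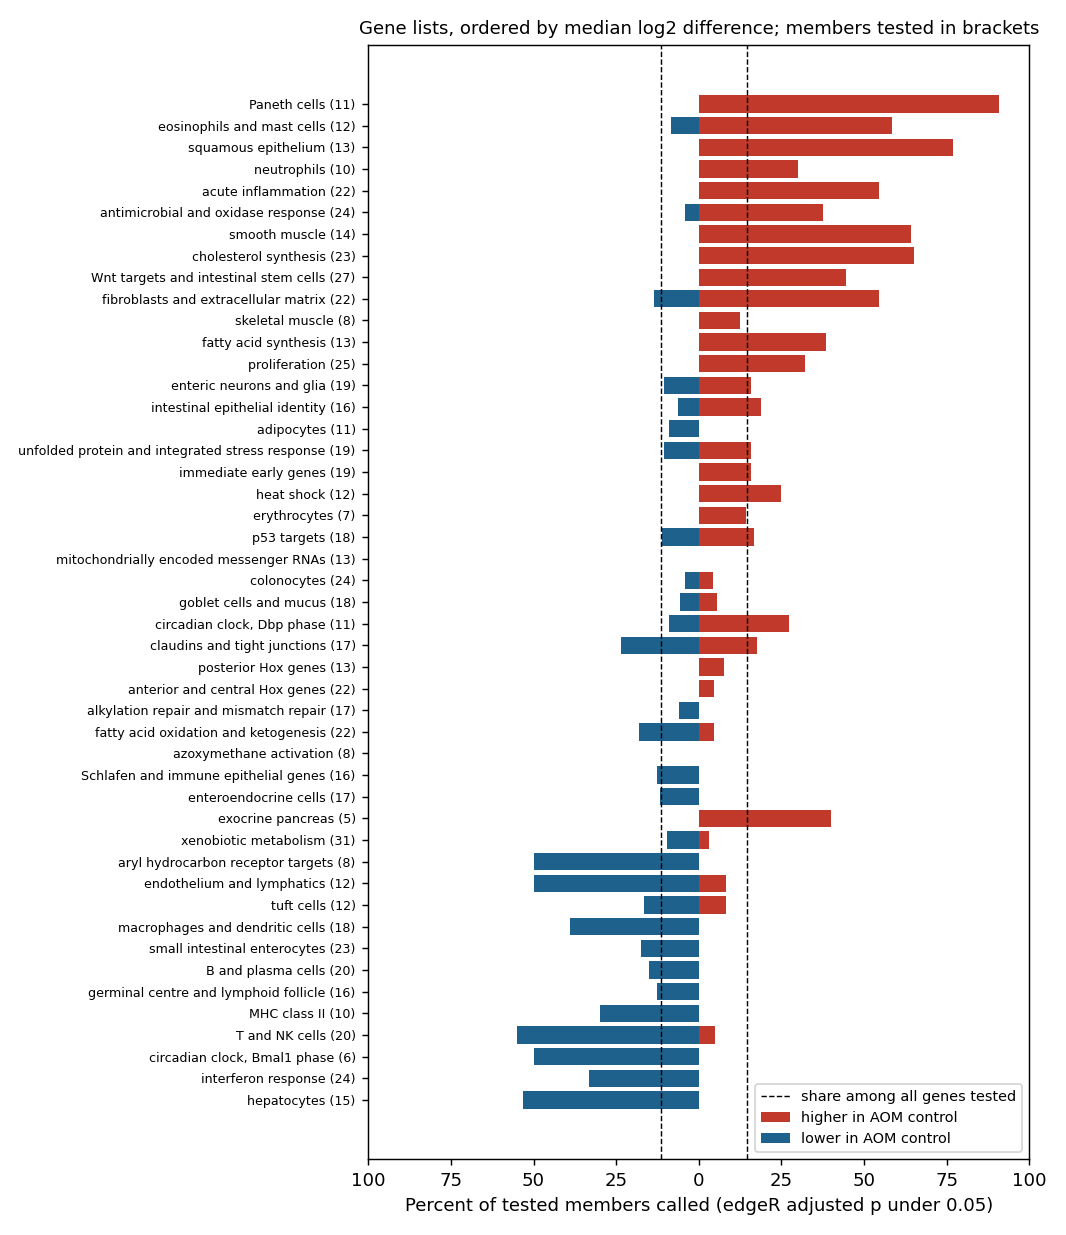
Percent of the tested members of each gene list called higher (right) or lower (left) in AOM control than in Apc control libraries, ordered by the median log2 difference, with the number tested in brackets and the shares among all genes as dashed lines at 14.6 and 11.3%. Paneth cell genes stand at the top with 10 of 11 called higher and hepatocyte genes at the bottom with 8 of 15 called lower.

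The Wnt inhibitor genes Notum, Wif1, Dkk2, Nkd1 and Apcdd1 were higher in AOM tissue. Of 27 tested genes of the Wnt and stem cell list 12 were called higher and 0 lower, with a median of 0.79. Of the 27, 9 lay higher in AOM without overlap between the arms. Notum, an enzyme that removes the lipid Wnt ligands need, had a lowest, median and highest level of 3.33, 32.3 and 61.7 CPM in AOM and of 0.0714, 0.148 and 0.289 CPM in Apc. The lowest AOM library thus stood above the highest Apc library, and the log2 difference was 7.55 (SE 0.94, edgeR adjusted p = 0.00052). Wif1, which binds Wnt ligands outside the cell, lay at 7.71, 76.2 and 142 CPM in AOM and at 1.48, 2.53 and 4.0 CPM in Apc (log2 difference 4.8, SE 0.77, edgeR adjusted p = 0.0019). Dkk2, a ligand of the co-receptor LRP6, differed by 3.77 (SE 0.49, edgeR adjusted p = 0.00063), and Nkd1, which acts inside the cell on Dishevelled, by 3.45 (SE 0.54, edgeR adjusted p = 0.0016). Apcdd1, a membrane-bound inhibitor, differed by 4.12 and Lef1, a nuclear partner of β-catenin, by 2.98. The arms did not overlap for Apcdd1 (6.75 to 102 CPM against 2.1 to 4.74 CPM), and Lef1 overlapped, with its highest Apc library at 3.51 CPM and its lowest AOM library at 2.17 CPM.

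Outside the list, the receptor Lgr6 and the ligand Wnt10a were among the 12 genes with the largest differences, and the call of Wnt10a was lost with limma-voom. Lgr6, a receptor of R-spondins, lay at 0.447, 13 and 35.2 CPM in AOM and 0.0198, 0.122 and 0.143 CPM in Apc, a log2 difference of 7.0 (SE 1.14, edgeR adjusted p = 0.0019). T (brachyury), a mesoderm transcription factor, had 0 reads in all 6 Apc libraries and 0.89, 5.59 and 17 CPM in AOM, at least 752-fold higher when the Apc libraries together are set to 3 counts. Notumos, which is transcribed at the Notum locus, had 1020 reads in AOM and 3 in Apc, a ratio of 411 (95% exact interval 140 to 1995, counting error only). The counting commands name no strand setting, so reads of Notum and Notumos cannot be told apart where they overlap. Onecut2, a homeodomain factor, differed by 7.47 (SE 1.11, edgeR adjusted p = 0.0013), and Adcy8, an adenylyl cyclase, by 6.83 (SE 1.04, edgeR adjusted p = 0.0014).

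Classical markers of crypt stem cells showed no call. Lgr5, the R-spondin receptor that marks crypt base stem cells, lay at 5.21, 18.9 and 69.5 CPM in AOM and 13.1, 17.7 and 27.4 CPM in Apc (log2 difference 0.36, edgeR adjusted p = 0.66). Axin2, a target in most Wnt-responding tissues, lay at 22.7, 57.3 and 168 CPM in AOM and 33.1, 42.2 and 47.4 CPM in Apc (log2 difference 0.82, edgeR adjusted p = 0.16). In both genes the AOM arm spread widely around a narrow Apc arm. Ascl2, Ccnd1 and Cd44 had differences of -0.09, -0.10 and 0.33 without a call. Sox9, a crypt base transcription factor, and Ephb2, a receptor that positions cells along the crypt, were called higher by 1.1 and 0.79. Apc itself lay at 43.8, 82 and 154 CPM in AOM and 102, 131 and 177 CPM in Apc (log2 difference -0.58, edgeR adjusted p = 0.08), which checks no label since no allele is given. Ctnnb1, which encodes β-catenin, was lower by 0.40 (edgeR adjusted p = 0.04), a call lost in 7 of the 12 fits that left out a library.

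Promoter windows of 2 called Wnt genes are shown because they were the members of the list that held the TCF and LEF core CTTTGA (capitals, either strand). The windows are RefSeq's for GRCm38.p6, 250 bases before to 50 after the start, 5′ to 3′ on the plus strand, at chr2:70474673-70474972 for Sp5 and chr9:7691840-7692139 for Mmp7.
Sp5: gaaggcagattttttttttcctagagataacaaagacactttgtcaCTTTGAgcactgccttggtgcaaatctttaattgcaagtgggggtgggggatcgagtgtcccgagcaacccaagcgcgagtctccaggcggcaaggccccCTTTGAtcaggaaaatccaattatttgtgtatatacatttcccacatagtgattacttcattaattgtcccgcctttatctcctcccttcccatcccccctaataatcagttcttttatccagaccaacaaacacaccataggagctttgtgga
Mmp7: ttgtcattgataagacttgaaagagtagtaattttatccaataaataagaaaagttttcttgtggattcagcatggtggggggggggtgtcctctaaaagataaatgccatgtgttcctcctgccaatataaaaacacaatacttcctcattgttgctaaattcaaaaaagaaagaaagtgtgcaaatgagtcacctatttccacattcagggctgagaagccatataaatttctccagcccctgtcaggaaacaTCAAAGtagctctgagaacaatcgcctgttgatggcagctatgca
Sp5, a transcription factor that acts on Wnt genes, carried the core 2 times and Mmp7, a matrix protease that activates defensins, carried it 1 time as its reverse complement. Among the first windows of 17 list members with an entry, 2 held the core (11.8%), against 16.2% of 27025 first windows of all genes. Sp5 lay at 1.04, 6.45 and 20.2 CPM in AOM and 0, 0.138 and 1.28 CPM in Apc (log2 difference 4.31, SE 1.19, edgeR adjusted p = 0.022), with overlap through Apc F 1 and M 3, and its call was lost without Apc F 2 or without AOM F 2. Mmp7 lay at 12, 53.3 and 154 CPM and 0.372, 1.53 and 7.58 CPM, a log2 difference of 4.62 (SE 0.90, edgeR adjusted p = 0.0046) without overlap.

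Within the AOM arm the same 3 libraries were high for these genes. AOM F 1, F 2 and M 3 had 51.8, 61.7 and 54.9 CPM of Notum, M 1 had 12.8 CPM, and F 3 and M 2 had 3.33 and 3.58 CPM. The order was alike for Lgr6, where F 1, F 2 and M 3 had 23.7, 35.2 and 23.5 CPM and the other 3 libraries 0.447 to 2.63 CPM. Black rice libraries of the AOM set, sequenced in the same table, mostly lay at the Apc level. There 1 library, F 1, had 96.5 CPM of Notum, 208 CPM of Wif1 and 13.5 CPM of T, while the other 4 had 0.0645 to 0.316 CPM, 0.58 to 1.58 CPM and 0 CPM. WT libraries of the Apc set had 0.0846 to 0.412 CPM of Notum and control libraries of the third set 0.138 to 0.305 CPM. Notum levels thus differed among the AOM libraries of 1 table, and the part of diet and sequencing set in the levels was not tested. How much lesion each piece held was not tested, and in bulk tissue fewer cells of a type and less RNA per cell cannot be told apart.

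**Figure D4:**
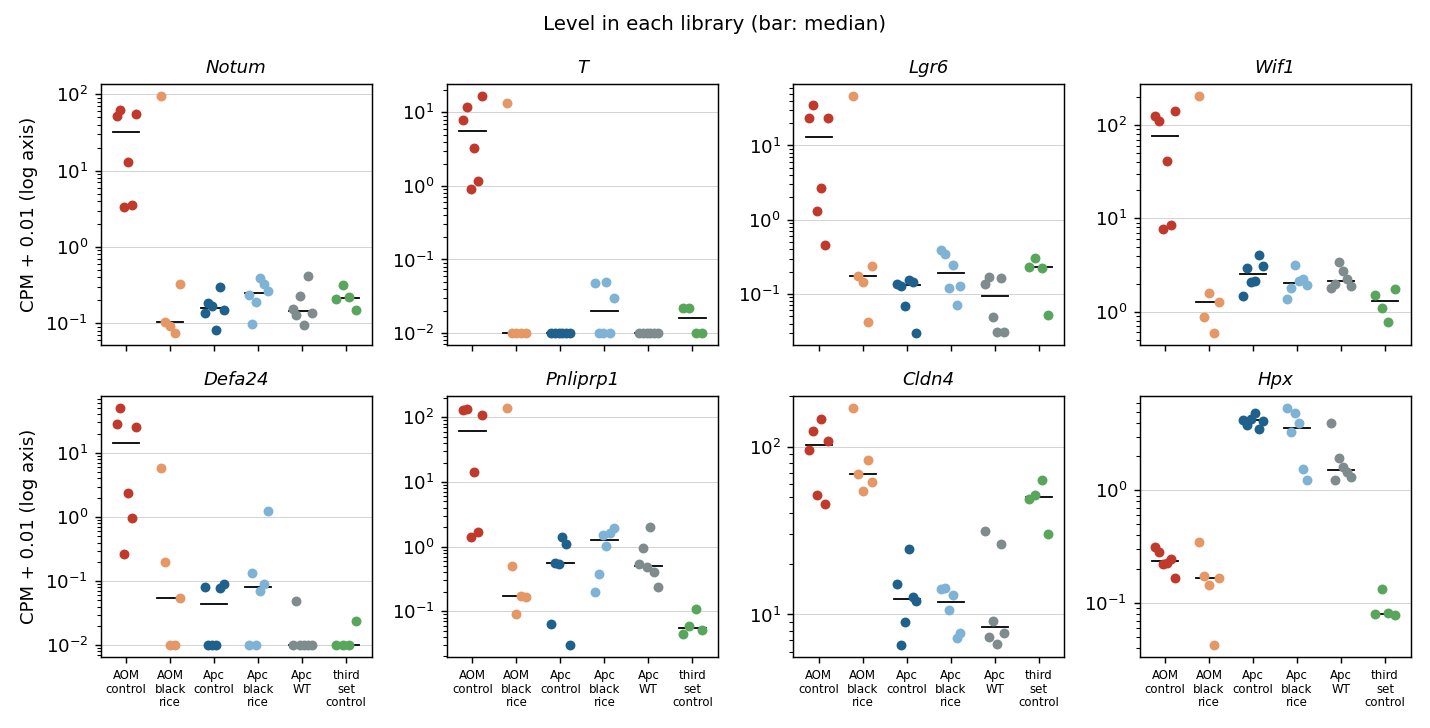
CPM plus 0.01 on a log axis for 8 genes in each library of 6 arms, with a bar at the median. For Notum, T, Lgr6 and Wif1 the 6 AOM control libraries and 1 AOM black rice library stand above all other libraries shown. Cldn4 is also high in the other AOM black rice libraries and Hpx is low in all libraries of AOM and of the third set.

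Paneth cell genes were the list with the largest median difference, 7.01, with 10 of 11 tested members called higher and 0 lower. Their summed level ran from 105 to 969 CPM in AOM and from 13.1 to 66 CPM in Apc. Lyz1, the lysozyme of Paneth cells, lay at 25.7, 277 and 508 CPM in AOM and 3.13, 9.78 and 39 CPM in Apc (log2 difference 4.21), and the arms overlapped because AOM M 2 (25.7 CPM) stood below Apc F 3. Defa24, an α-defensin, lay at 0.254, 14.1 and 50.8 CPM and 0, 0.0341 and 0.0792 CPM (log2 difference 8.73, SE 1.48, edgeR adjusted p = 0.0024). Pla2g2a, a secreted phospholipase that kills bacteria, lay at 49, 123 and 229 CPM and 0.396, 7.57 and 12.8 CPM (log2 difference 4.3, SE 0.83, edgeR adjusted p = 0.0044). Again AOM F 1, F 2 and M 3 held the highest values of all 3 genes. Defa17 had 346 reads in AOM and 0 in Apc (at least 139-fold higher over the arms), and Defa22 had 1209 reads against 1. α-Defensin genes are near copies of each other, so the split of reads among them is uncertain, as between Lyz1 and Lyz2. Mptx2 was the tested member without a call (-1.95, edgeR adjusted p = 0.38). With limma-voom 4 members were called higher. In black rice libraries 7 members were tested, with 1 higher and 1 lower.

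Goblet cell genes held 1 higher and 1 lower call among 18 tested, with 2 higher without Apc M 3 and 3 lower without AOM M 3. Spink4, a small secreted peptide of goblet cells, lay at 1569, 1850.5 and 3229 CPM in AOM and 295, 466 and 935 CPM in Apc without overlap (log2 difference 2.0, SE 0.34, edgeR adjusted p = 0.0023). Atoh1, the factor that sets the secretory lineage, was lower by 0.86 (SE 0.17, edgeR adjusted p = 0.0047), also without overlap. Muc2, the main mucin of the colon, differed by 0.40 (edgeR adjusted p = 0.54). Pnliprp1 and Pnliprp2, lipases of the pancreatic lipase family, lay at 1.42, 61.9 and 133 CPM and 1.87, 39.8 and 105 CPM in AOM and at 0.0198, 0.54 and 1.41 CPM and 1.12, 1.64 and 2.98 CPM in Apc. Their log2 differences were 6.74 (SE 1.35, edgeR adjusted p = 0.0052) and 4.64 (SE 0.97, edgeR adjusted p = 0.0064). The other 3 tested pancreas genes, Cpb1, Cela1 and Clps, had differences of -1.09, -0.79 and -0.45 without a call.

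Keratins of stratified epithelium, Cldn4 and S100a11 were higher in AOM. The squamous list had 10 of 13 tested members higher and 0 lower with a median of 2.06, and its summed level was 106 to 308 CPM in AOM and 87.7 to 156 CPM in Apc. Controls of the third set lay within the AOM range, at 190 to 270 CPM, and WT libraries of the Apc set had 57.2 to 173 CPM. Krt14, a basal cell keratin, lay at 3.13, 6.49 and 9.4 CPM and 0.416, 0.553 and 1.16 CPM (log2 difference 3.34, SE 0.36, edgeR adjusted p = 0.00028), and Krt13 at 1.36, 2.09 and 3.31 CPM and 0, 0.0524 and 0.196 CPM (log2 difference 4.9, SE 0.63, edgeR adjusted p = 0.00063). These are low levels: 4 of the 6 Apc libraries had 0 reads of Krt5, and all 6 had 0 reads of Krt6a. Without AOM F 2 the count of higher members was 6, and without Apc F 1 and M 3 together it was 6. Cldn4, a tight junction protein, lay at 45.5, 102 and 146 CPM and 6.55, 12.4 and 24.7 CPM without overlap (log2 difference 2.87, SE 0.36, edgeR adjusted p = 0.00053). The remaining AOM black rice libraries had 54.5 to 83.8 CPM of it and the controls of the third set 30 to 63.2 CPM, all above the highest Apc control library. Cldn1, of the same family, was lower by 2.28. S100a11, a calcium-binding protein chosen here after its values were seen, lay at 796, 1065 and 1352 CPM and 132, 170.3 and 247 CPM (log2 difference 2.62, SE 0.21, edgeR adjusted p = 6.6e-05).

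Chemokines that draw neutrophils, matrix proteases and mast cell proteases were higher in AOM tissue. The acute inflammation list had 12 of 22 tested members higher and 0 lower (median 1.57), with 7 higher without Apc F 2 and 7 without Apc F 1 and M 3. Cxcl5 lay at 1.02, 4.54 and 14.7 CPM in AOM and 0.0594, 0.101 and 0.642 CPM in Apc (log2 difference 5.08, SE 0.92, edgeR adjusted p = 0.0031). Cxcl3 had 184 reads in AOM and 1 in Apc, a ratio of 222 (95% exact interval 39.4 to 8825). Il11, a cytokine of stromal cells, lay at 1.5, 1.89 and 4.54 CPM and 0.107, 0.424 and 0.732 CPM without overlap (log2 difference 2.45, SE 0.42, edgeR adjusted p = 0.0025), and Mmp10, a stromelysin, differed by 4.28 (SE 0.54, edgeR adjusted p = 0.00058). Il1b, Ptgs2 and Osm, also on the list, differed by 0.78, 0.28 and 0.66 without a call. S100a8 and S100a9, the calprotectin chains of neutrophils, differed by 3.67 and 3.19, and 3 of 10 neutrophil genes were called and Ly6g and Csf3r were not. Without Apc M 1 the count was 5. The summed neutrophil level was 31 to 206 CPM in AOM and 7.84 to 124 CPM in Apc.

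Mast cell genes accounted for most of the calls in the list of eosinophils and mast cells, where 7 of 12 were higher and 1 was lower. Tpsb2, a tryptase, lay at 1.84, 6.19 and 10.9 CPM in AOM and 0.177, 0.395 and 0.919 CPM in Apc without overlap (log2 difference 3.83, SE 0.49, edgeR adjusted p = 0.00059), and Cpa3, the mast cell carboxypeptidase, at 1.96, 6.51 and 13.1 CPM and 0.374, 0.737 and 1.41 CPM (log2 difference 3.0, SE 0.46, edgeR adjusted p = 0.0014). The count was 3 or 4 without any 1 of Apc F 2, Apc F 3, AOM F 2 or AOM M 2. Kit, the stem cell factor receptor, which mast cells share with pacemaker cells of the gut wall, was the lower member at -0.74, a call lost in 7 of the 12 fits that left out a library. Prg2 and Siglecf of eosinophils differed by -0.63 and -1.16 without a call. Saa2, an acute phase protein, was lower by 2.98 (SE 0.27, edgeR adjusted p = 0.00013). It was the 1 lower member of the antimicrobial and oxidase response list, where 9 of 24 were higher (median 1.04). The count of higher members there lay between 6 and 9 when any 1 library was left out.

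Muscle and matrix genes were also higher in AOM tissue. Of 14 smooth muscle genes 9 were higher and 0 lower (median 0.85), and the summed level was 4514 to 14837 CPM in AOM and 2727 to 4112 CPM in Apc, without overlap. Other libraries of the Apc set reached into the AOM range, with 3099 to 5781 CPM in WT and 3532 to 6457 CPM in black rice libraries. Controls of the third set had 3253 to 30875 CPM. Actg2, the enteric smooth muscle actin, lay at 706, 1179 and 2271 CPM and 224, 301 and 479 CPM (log2 difference 1.94, SE 0.33, edgeR adjusted p = 0.0023), and Des, the muscle filament protein desmin, at 885, 1240.2 and 2767 CPM and 252, 410.3 and 595 CPM (log2 difference 1.77, SE 0.31, edgeR adjusted p = 0.0027). The count was 4 or 5 without any 1 of Apc F 1, F 2, F 3, M 1 or M 3 or of AOM F 2, F 3 or M 2. It was 4 without Apc F 1 and M 3 together. Fibroblast and matrix genes had 12 of 22 higher and 3 lower, and 7 higher without Apc F 2 or without AOM M 2. Timp1, an inhibitor of matrix proteases, lay at 3.54, 6.5 and 9.81 CPM and 0.673, 1.05 and 1.46 CPM (log2 difference 2.65, SE 0.29, edgeR adjusted p = 0.0003), and Col1a1, a chain of collagen I, at 127, 265 and 308 CPM and 33.2, 58.5 and 146 CPM (log2 difference 1.82, SE 0.34, edgeR adjusted p = 0.0039). Dcn, Pdgfra and Fap, which also mark fibroblasts, were lower by 0.74, 0.47 and 0.84. The call of Dcn was lost without Apc F 2 or AOM F 2, and that of Pdgfra without Apc F 1, AOM F 2, AOM M 1 or AOM M 2. Among 19 genes of enteric neurons and glia, 3 were higher, including Ret (1.15) and the nitric oxide synthase Nos1 (1.53), and 2 were lower, Vip (-0.87) and Ednrb (-0.87). The calls of Vip and Ednrb were lost in 8 and 11 of the 12 fits that left out a library, and without AOM M 3 the list had 5 higher. The part of the muscle content of each piece in other differences was not tested.

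Genes of cholesterol synthesis were higher in AOM, with 15 of 23 tested called higher and 0 lower (median 0.80). Their summed level was 2061 to 2821 CPM in AOM and 852 to 2005 CPM in Apc. Controls of the third set lay within the AOM range, at 2613 to 2770 CPM, and WT libraries of the Apc set had 1170 to 2448 CPM. The count lay between 14 and 16 when any 1 library was left out, was 16 after GC and length trends were removed and 14 without Apc F 1 and M 3. Nsdhl, a sterol dehydrogenase of the late pathway, lay at 94, 104.4 and 124 CPM in AOM and 28.1, 45.7 and 59.5 CPM in Apc without overlap (log2 difference 1.28, SE 0.14, edgeR adjusted p = 0.0003). Fdft1, squalene synthase, lay at 201, 220.3 and 309 CPM and 46.1, 93 and 133 CPM (log2 difference 1.46, SE 0.17, edgeR adjusted p = 0.00041), and Dhcr7, the last reductase, differed by 1.02 (SE 0.13, edgeR adjusted p = 0.0005). Hmgcs1, which makes HMG-CoA, lay at 197, 302 and 346 CPM and 62.5, 177 and 265 CPM (log2 difference 0.87, SE 0.20, edgeR adjusted p = 0.0096) and overlapped, since Apc F 1, F 2 and F 3 stood at 255, 214 and 265 CPM. Srebf2, which encodes the regulator of the pathway, differed by 0.64. Idi1, Sc5d and Pmvk differed by 0.09, 0.14 and 0.17 without a call.

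The median over the list was 0.32 in F libraries and 1.31 in M libraries, with 3 and 15 members called. Lss, lanosterol synthase, had 16.4, 20.1 and 19.1 CPM in Apc M libraries and 57.6, 50.8 and 62.5 CPM in Apc F libraries, while the AOM libraries had 41.6 to 104.1 CPM. Its difference was 0.03 in F and 2.23 in M, and the test of F against M gave an edgeR adjusted p of 0.17. WT libraries had 34.7 to 83.5 CPM of Lss and controls of the third set 59.4 to 76.3 CPM.

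Promoter windows of Hmgcs1 and Nsdhl are shown because the windows of this list shared a short sequence, the CCAAT box bound by the factor NF-Y. Capitals mark CCAAT or its reverse complement ATTGG and, in Hmgcs1, the sterol regulatory element TCACNCCAC (found as TCACCCCAC). The windows are RefSeq's for GRCm38.p6 on the plus strand, at chr13:119690101-119690400 for Hmgcs1 and chrX:72918271-72918570 for Nsdhl, 5′ to 3′.
Hmgcs1: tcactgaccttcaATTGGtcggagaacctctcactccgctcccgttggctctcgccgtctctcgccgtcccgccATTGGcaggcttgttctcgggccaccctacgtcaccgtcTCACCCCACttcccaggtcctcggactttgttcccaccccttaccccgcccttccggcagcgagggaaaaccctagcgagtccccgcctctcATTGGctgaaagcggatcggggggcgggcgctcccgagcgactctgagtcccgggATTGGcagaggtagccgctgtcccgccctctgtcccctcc
Nsdhl: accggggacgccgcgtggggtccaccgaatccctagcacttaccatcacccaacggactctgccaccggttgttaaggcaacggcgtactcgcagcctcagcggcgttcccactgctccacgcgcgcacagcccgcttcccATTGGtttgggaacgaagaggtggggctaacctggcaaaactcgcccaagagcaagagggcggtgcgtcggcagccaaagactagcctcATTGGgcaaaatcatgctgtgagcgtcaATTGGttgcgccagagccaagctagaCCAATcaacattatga
Both windows held 4 matches of the CCAAT box. Of 16 list members with a window, 15 held it on either strand (93.8%), against 37.9% of 27025 windows and 37.6% of those of 1718 genes called higher in AOM. Windows of the Wnt list held it in 10 of 17 cases (58.8%). The sterol element was in 1 of the 16 windows (6.25%, against 1.22% of all) and the E-box CACGTG in 3 (18.8%, against 7.24%). The 4 motifs, the TCF core included, were chosen with results known, no 2 matches overlap in the windows shown, and a match is a description of the letters.

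Fatty acid synthesis had 5 of 13 members higher and 0 lower. Fads1, a desaturase, lay at 50.1, 67.1 and 87.5 CPM in AOM and 22.4, 26.9 and 47.9 CPM in Apc without overlap (log2 difference 1.24, SE 0.15, edgeR adjusted p = 0.00041), and Fasn, fatty acid synthase, differed by 1.06 (SE 0.22, edgeR adjusted p = 0.0054). The count was 3 without any 1 of Apc F 2, F 3, M 1 or M 2 or of AOM F 2, F 3 or M 3. Fatty acid oxidation had 1 higher and 4 lower of 22. Hadhb, a subunit of the mitochondrial trifunctional protein, was lower by 0.74 and Acadm, which oxidises medium chains, by 0.66. Ucp2, an inner membrane carrier, was the higher member at 1.2. Without AOM F 1 or without AOM M 2 the count of lower members was 2, as it was with GC and length trends removed, where the call of Hadhb was lost.

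Calls among proliferation genes changed with single libraries. Of 25 tested 8 were higher and 0 lower with a median of 0.33, and between 2 and 5 were called when any 1 library other than Apc M 2 or AOM F 3 was left out. Rrm2, a subunit of ribonucleotide reductase, measured 25.3 ± 7.77 against 15.9 ± 6.43 CPM (SD, n = 6 libraries each), with a difference of -0.04 in F and 1.5 in M. Mki67, a marker of cycling cells, lay at 124, 172 and 351 CPM and 114, 151 and 229 CPM (log2 difference 0.33, edgeR adjusted p = 0.23). The 8 genes that activate azoxymethane, Cyp2e1 among them (-1.02, edgeR adjusted p = 0.38), had 0 calls. Mgmt, which removes methyl groups from guanine, differed by -0.26 (edgeR adjusted p = 0.39). Of 18 p53 targets 3 were higher, including the death receptor gene Tnfrsf10b (0.66), and 2 lower. Without AOM F 2 those counts were 1 and 0, the count of lower ones was also 0 without Apc F 3 or Apc M 1 and 1 without Apc F 2, AOM M 1 or AOM M 2, and it was 4 without Apc M 3. Heat shock genes had 3 of 12 higher, led by the co-chaperone Bag3 (0.97, SE 0.10, edgeR adjusted p = 0.00027).

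Many T cell, NK cell and macrophage genes were lower in AOM tissue. Of 20 T and NK cell genes 11 were lower and 1 was higher (median -0.91, with -0.58 in F and -1.29 in M). Their summed level overlapped, with 35.7 to 176 CPM in AOM and 66.7 to 170 CPM in Apc, and AOM F 1 held the highest value. WT libraries of the Apc set had 64.1 to 114 CPM. Klrd1, an NK receptor chain, lay at 0.447, 1.07 and 1.41 CPM in AOM and 2.94, 4.01 and 5.51 CPM in Apc without overlap (log2 difference -2.0, SE 0.25, edgeR adjusted p = 0.0005). Cd8a, the coreceptor of cytotoxic T cells, lay at 0.49, 1.19 and 2.87 CPM and 0.838, 7.35 and 12.7 CPM, with overlap through Apc M 1 and M 2, while Cd4 and the receptor constant gene Trac differed by 0.04 and -0.38 without a call. Foxp3, the factor of regulatory T cells, was the member called higher, at 1.47, 2.91 and 6.05 CPM and 0.963, 1.46 and 2.46 CPM (log2 difference 1.02), a call lost in 9 of the 12 fits that left out a library. The count of lower members was 6 or 7 without any 1 of Apc F 1, F 3 or M 3 or of AOM F 2, F 3, M 1 or M 2, and 6 without Apc F 1 and M 3 together. Macrophage and dendritic cell genes had 7 of 18 lower and 0 higher (median -0.54, with -0.28 in F and -0.91 in M). Their summed level also overlapped, with 609 to 2026 CPM in AOM and 890 to 1488 CPM in Apc, and AOM F 1 was again the highest. Cd163, a scavenger receptor of resident macrophages, lay at 0.377, 0.531 and 1.06 CPM and 6.76, 9.92 and 14.9 CPM (log2 difference -3.99, SE 0.29, edgeR adjusted p = 4.0e-05), and its lowest Apc library stood above every AOM library. Mrc1 and Adgre1, 2 further macrophage markers, were lower by 1.02 and 1.37, and C1qa, Csf1r and Cd68 differed by -0.37, -0.34 and 0.17 without a call.

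Plasma cell genes had 3 of 20 members lower and 0 higher, and 1 lower without Apc F 3, Apc M 2 or AOM F 2. Jchain, which joins IgA and IgM units, lay at 81.4, 189 and 365 CPM in AOM and 502, 789 and 1368 CPM in Apc without overlap (log2 difference -2.14, SE 0.37, edgeR adjusted p = 0.0027), and Igha, the constant chain of IgA, differed by -0.56 without a call. Of 173 immunoglobulin variable segments 75 were lower and 0 higher, with a median of -1.91. Segments are near copies, and their reads can be split among them. Endothelial and lymphatic genes had 6 of 12 lower and 1 higher. Kdr, the VEGF receptor of blood vessels, lay at 7.32, 9.69 and 12.5 CPM and 20.8, 23.9 and 31 CPM without overlap (log2 difference -1.36, SE 0.16, edgeR adjusted p = 0.00042), and Mmrn1, a protein of lymphatic endothelium, at 6.39, 7.66 and 12.3 CPM and 31.7, 53.5 and 78.2 CPM (log2 difference -2.66, SE 0.23, edgeR adjusted p = 9.8e-05). The higher member was Prox1 (3.42), which is expressed in lymphatic vessels and is also a member of the Wnt list. Cdh5 and Vwf, 2 defining endothelial genes, differed by -0.31 and -0.04 without a call.

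Interferon response genes had 8 of 24 lower and 0 higher (median -0.93), and the Apc arm was spread far more widely. Oas1a, an antiviral synthetase, lay at 18.7, 19.8 and 21.9 CPM in AOM and 23.4, 36.8 and 72.7 CPM in Apc (log2 difference -1.05, SE 0.23, edgeR adjusted p = 0.0085), and the highest AOM library was just under the lowest Apc library. Ifi44 lay at 2.67, 3.83 and 7.77 CPM and 2.16, 17.4 and 67.4 CPM (log2 difference -2.24, SE 0.54, edgeR adjusted p = 0.012) and its call was lost with limma-voom, which called 3 members of the list lower. Apc F 1 held the highest value of both genes. The summed level of the list was 390 to 621 CPM in AOM and 187 to 2059.7 CPM in Apc, and 4 members were called lower without Apc F 1 and M 3 and 5 without AOM F 2. Controls of the third set had 116 to 147 CPM of Oas1a and 87.2 to 125 CPM of Ifi44, above both arms.

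Fibrinogen and other plasma protein transcripts separated the models at low levels. Of 15 hepatocyte genes 8 were lower in AOM and 0 higher. Hpx, the haem-binding plasma protein, lay at 0.159, 0.226 and 0.304 CPM in AOM and 3.52, 4.18 and 4.82 CPM in Apc (log2 difference -4.15, SE 0.21, edgeR adjusted p = 8.0e-06), and Fga, a fibrinogen chain, at 0, 0.0138 and 0.0869 CPM and 1.82, 2.41 and 2.93 CPM (log2 difference -6.67, SE 0.56, edgeR adjusted p = 8.4e-05). Alb, albumin, the most abundant liver transcript, differed by 0.51 without a call and lay at 4.18, 18.1 and 43.4 CPM and 11.1, 13.5 and 21.6 CPM. The summed level of the list overlapped, with 67.9 to 274 CPM in AOM and 116 to 268 CPM in Apc. WT libraries of the Apc set had 1.24 to 3.97 CPM of Hpx and 1.04 to 2.34 CPM of Fga, whereas controls of the third set had 0.0691 to 0.122 CPM and 0 to 0.0138 CPM. The genes were thus detectable in the Apc table as a whole, WT tissue included, and near 0 in the controls of the other 2 tables.

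Genes of the aryl hydrocarbon receptor, a sensor of dietary and microbial indoles, had 4 of 8 lower and 0 higher. Ahrr, its repressor and a sensitive target, lay at 0.396, 0.63 and 0.784 CPM in AOM and 1.24, 1.49 and 1.78 CPM in Apc without overlap (log2 difference -1.33, SE 0.24, edgeR adjusted p = 0.0033), Tiparp was lower by 0.61 and Ahr itself by 0.67. The call of Tiparp was lost when GC and length trends were removed. Cyp1a1 was below the expression filter and was not tested. Clock genes of the Bmal1 phase had 3 of 6 lower, among them Arntl (log2 difference -1.18, SE 0.25, edgeR adjusted p = 0.0075) and Cry1 (-1.1, SE 0.20, edgeR adjusted p = 0.0033). Nr1d1, the repressor that peaks opposite to Arntl, was higher, at 34.5, 77.3 and 135 CPM and 9.97, 16.3 and 22.5 CPM (log2 difference 2.29, SE 0.32, edgeR adjusted p = 0.00095), as was Ciart (1.18), while Per2 was lower (-1.1). The list of the Dbp phase, which holds these genes, had 3 higher and 1 lower of 11 tested. Its median was -0.09, and 4 of the 11 differences were above 0. The sources used here give no collection time, and its part in these differences was not tested. Among 31 xenobiotic enzymes 1 was higher and 3 were lower, and the list changed with single libraries, from 0 to 5 higher (5 without AOM M 3) and from 1 to 9 lower (1 without AOM F 1, 9 without AOM M 1). Without Apc F 1 and M 3 it had 0 higher and 1 lower, and its median turned from -0.46 to 0.50. The glucuronosyltransferase gene Ugt2b34 was lower by 1.3 (edgeR adjusted p = 0.0025).

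Absorptive and positional genes of the colon differed in few cases. Of 24 colonocyte genes 1 was higher, the peptide gene Guca2b (0.79), and 1 lower, the carbonic anhydrase gene Car2 (-1.04). The call of Guca2b was lost in 9 of the 12 fits that left out a library and that of Car2 without AOM F 2. The list had 3 higher and 2 lower without Apc F 1, 2 higher without AOM M 3, 2 lower without Apc M 3 and 3 lower without AOM M 1. Without Apc F 1 and M 3 together it had 3 higher and 4 lower, and its median turned from -0.07 to 0.24. Car1, a carbonic anhydrase of the proximal colon, ranged from 119.8 to 24870.5 CPM in AOM and from 371 to 11995 CPM in Apc (log2 difference 0.81, edgeR adjusted p = 0.64). Slc26a3, the chloride exchanger, Aqp8, a water channel, and Car4, a surface carbonic anhydrase, differed by 0.01, -0.29 and -0.42 without a call. Reg3b and Reg3g, antibacterial lectins, differed by 0.79 and 1.49 (without a call), and the distal genes Hoxb13 and Hoxd13 by -0.41 and -0.01 without a call. Small intestinal enterocyte genes had 4 of 23 lower and 0 higher, among them the peptidase gene Dpp4 (-1.11, SE 0.16, edgeR adjusted p = 0.0011). That list had 8 lower without AOM M 1. Without Apc F 1 and M 3 together it had 3 lower, and its median turned from -0.59 to 0.28. Of 13 posterior Hox genes 1 was called, Hoxa11 (1.05, edgeR adjusted p = 0.042), a call lost in 10 of the 12 fits that left out a library. Of 22 anterior and central Hox genes 1 was called, Hoxa7, at 62, 74.8 and 97.5 CPM and 8.61, 30.2 and 51.2 CPM without overlap (log2 difference 1.37, SE 0.34, edgeR adjusted p = 0.015). Enteroendocrine genes had 0 higher and 2 lower of 17, Gcg (-1.0) and Neurod1 (-0.96), whose calls were lost in 8 and 6 of the 12 fits that left out a library, and there were 4 lower without AOM F 3. Tuft cell genes had 1 higher and 2 lower of 12. The 13 mitochondrially encoded messenger RNAs had 0 calls.

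F and M libraries were then tested apart. The letters matched the sex-linked transcripts: Xist, expressed from the inactive X chromosome, lay at 349 to 1623 CPM in the 6 F libraries and at most 0.724 CPM in the 6 M libraries. In F libraries 2870 genes (13.3%) were called between the models and in M libraries 1416 (6.55%), with 3 libraries an arm. The test of the difference between F and M called 0 of 21611 genes (0%) with edgeR, 1488 at an unadjusted p under 0.05, 0 with limma-voom and 68 with DESeq2. Wnt genes had near values in both, with Notum at 7.97 in F and 7.12 in M and Nkd1 at 3.65 and 3.24. The counts depended on single libraries: the F count was 546 without Apc F 2, 701 without Apc F 3, 1513 without Apc F 1, 624 without AOM F 2 and 1161 without AOM F 1. The M count was 326 without Apc M 1, 523 without Apc M 2, 756 without AOM M 1, 662 without AOM M 2 and 882 without Apc F 2.

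The same contrast was taken in black rice libraries, which share no library with the control contrast but the same tables. It called 7132 of 22209 genes (32.1%), and 4112 without AOM black rice F 1. Of the 5600 genes called on control diet, 5459 were tested there, and 98.5% had the same sign, against 82% of all genes. 3816 of them were called in the same direction, which is 69.9% of those tested and 53.5% of the black rice calls, and 0 in the opposite one. S100a11 differed by 2.62 on control diet and 2.79 on black rice, Cldn4 by 2.87 and 3.0, Hpx by -4.15 and -4.23, and Cd163 by -3.99 and -4.75. Values on black rice were smaller for Wnt and Paneth genes, with Notum at 7.55 and 3.59, Wif1 at 4.8 and 2.36 and Defa24 at 8.73 and 0.75. Among the AOM black rice libraries, Notum and Wif1 were high in F 1 alone, as given above, so their values on black rice rest on that library. The Wnt list had 6 higher and 1 lower on black rice (median 0.64). Cholesterol synthesis had 7 higher and 1 lower (median 0.39), smooth muscle 3 higher, interferon response 8 lower and hepatocyte genes 8 lower. The difference between the diets itself, a test added after the data were seen, called 0 of 23423 genes (0%) with edgeR, 1241 at an unadjusted p under 0.05, 0 with limma-voom and 4 with DESeq2. Those 4 were Pnliprp2, Slc26a9, Notumos and T.

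**Figure D5:**
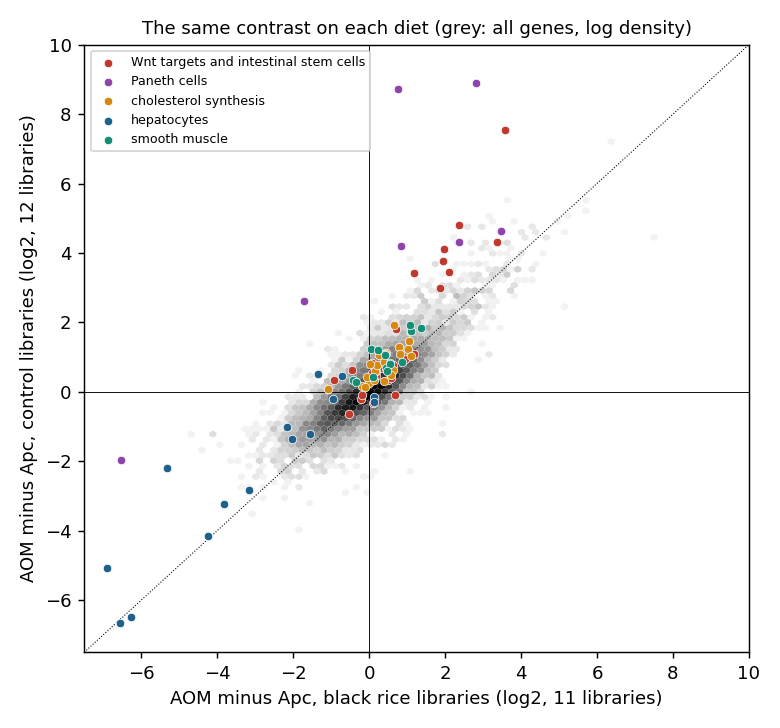
AOM minus Apc log2 difference of each gene in control libraries (vertical axis) against black rice libraries (horizontal axis), with all genes in grey by density, 5 lists in colour and the line of equal values dotted. Called hepatocyte genes such as Hpx and Fga lie low on both axes, and Notum and 2 α-defensin genes lie far above the dotted line.

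Non-coding classes and several loci that collect ribosomal reads differed between the arms too. The 1 tested gene of the class rRNA differed by -1.09 without a call, and 2 of 2 mitochondrial ribosomal RNA genes were higher in AOM. Of 992 genes of the class TEC, short gene models still to be tested, 360 were higher in AOM and 49 lower, and of 123 sense intronic genes 53 were higher and 5 lower. Mir6236 and Lars2, which often collect ribosomal RNA reads and were named after their values were seen, differed by 5.07 (SE 0.35, edgeR adjusted p = 4.0e-05) and 2.73 (SE 0.25, edgeR adjusted p = 0.00014), and the unnamed gene ENSMUSG00000119584 by 5.38 (SE 0.41). The differences were of the same order in black rice libraries, at 5.03, 2.39 and 4.65. Removing these and the annotated ribosomal RNA genes before scaling gave 5591 calls, of which 5590 were among the 5600. Removing GC and length trends from each library gave 5188 calls, 4310 of them shared. Under that refit the Wnt list had 12 higher calls, the acute inflammation list 12, the hepatocyte list 8 lower and the Paneth list 8 higher.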

How the data were processed

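Bulk messenger RNA of mouse intestinal tract was sequenced after Trizol extraction and oligo(dT) selection on a DNBSEQ machine, per the labels' protocols. The deposited tables hold raw read counts per gene, which the authors made with FastQC, fastp, HISAT2, SAMtools and featureCounts of Subread on GRCm39 with Ensembl release 104 annotation, per the submitters' processing notes. The command in the headers of the AOM and FMT tables gives featureCounts 2.0.1 without a strand option, and the Apc table has no such header. Each table has 55416 genes, of which 52083 have a symbol. The 12 libraries were taken by their labels. This comparison and the gene lists (48 lists, 828 entries, 21 without a match, all 19 histone genes among them) were chosen with earlier results of these data known.

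The 12 control libraries were fitted together with edgeR 4.0.16 in R 4.3.3 (filterByExpr, TMM, quasi-likelihood), with 4 groups and the model difference averaged over F and M. p-values were adjusted by Benjamini-Hochberg over all genes, and the threshold was 0.05. SEs are the log2 difference over the square root of F. CPM use the TMM scale of this fit. The black rice contrast used 11 libraries, leaving out AOM black rice F 3, which carries liver transcripts. Where a group has 0 reads, the fold is a lower bound with 3 counts over the arm. On simulated counts for this comparison (21186 genes), 49% of 100 genes changed by a log2 of 1 and 87% of 100 changed by 2 were recovered, with 7 unchanged genes called. Depths were 37.9 to 61.9 M reads.

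Named were the 12 highest and 12 lowest called genes that passed level, sign and overlap limits, up to 4 called members per list by p, and a fixed set of controls. Other list members, Sp5, Hmgcs1, S100a11, Slc26a9, Mir6236 and Lars2 were named after their values were seen. Alternatives were DESeq2 1.42.0, limma-voom 3.58.1, RLE factors, no filter, a replicate block, a test against a log2 difference of 1, all 30 AOM and Apc libraries in 1 fit and each library left out in turn. Added after the data were seen were the refits without 2 Apc libraries, without ribosomal loci and without GC and length trends, and the test between diets. Samples with the same number were not paired: of 18 such pairs 5 had correlated deviations over 0.1 (range -0.45 to 0.46). No 2 of the 12 control libraries were identical. Gene types, transcript lengths and GC contents came from GENCODE vM21 by gene identifier (21488 of 21611 tested genes matched), and promoter windows from RefSeq by symbol. Some list members are not reported here.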

Additional observations from a re-analysis of the deposited data

Results flagged for a closer look

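In 12 of 94 summed list levels 1 library of its arm of 6 lay far from the other 5. The gap was above Dixon's critical value for 6 samples, which chance passes in about 1 of 20 groups of normally distributed values. The sums were not put on a log scale, and lists share libraries and some genes, so 12 of 94 cannot be set against that rate. AOM M 1 was the outlying library in 5 lists, with 52540.1 CPM summed over colonocyte genes, 2717.81 CPM over small intestinal enterocyte genes, 1277.7 CPM over p53 targets, 511.482 CPM over aryl hydrocarbon receptor targets and 2738.48 CPM over Schlafen and immune epithelial genes. AOM M 3 had 26922.1 CPM of goblet cell genes, AOM M 2 had 14836.7 CPM of smooth muscle genes and AOM F 2 had 978.246 CPM of adipocyte genes. Apc F 1 had 2059.68 CPM of interferon response genes and 156.196 CPM of squamous genes. Apc M 3 had 133.432 CPM of eosinophil and mast cell genes, and Apc M 1 had 2096.12 CPM of unfolded protein response genes.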

How the results depend on the processing

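Over both letters, no gene named as called changed its direction under an alternative. These genes were called on the same libraries, which made such a change unlikely from the start. Over all named genes, a call was lost in 234 of 2772 checks with 1 library left out and in 244 of 2307 checks under the other settings. Several named genes without a call changed direction, among them Car1 (-0.60 to 3.08), Hoxd13 (-2.27 to 1.30) and Lgr5 (-0.42 to 0.60). Over both letters the 5600 calls became 6929 with DESeq2, 7935 with limma-voom, 5582 with RLE factors, 5401 without the filter (where the median of all genes was 0.11), 5094 with 30 libraries in 1 fit and 5783 with the replicate block. The replicate block gave 3308 calls in F, 1198 in M, 0 for F against M and 6348 in black rice, but the numbers do not pair the samples. DESeq2 called 4538 in F, 3005 in M, 68 for F against M and 4 between diets, and limma-voom 7003 in F and 2175 in M. Against a log2 difference of 1 the counts were 687 over both (86.2% higher, against 56.5%), 264 in F, 104 in M and 575 in black rice. Without Apc F 1 and M 3 the count was 4337 over both and 1434 in F. Keeping AOM black rice F 3 gave 5129. Leaving out 1 library at a time gave 3823 (without AOM F 2) to 6615 (without AOM M 3) over both, 546 to 3627 in F, 326 to 1934 in M, 0 to 0 for F against M, and 4112 (without AOM black rice F 1) to 8047 in black rice. The cause was not tested. Depth was above 37 M reads in each control library, and genes with 0 reads in an arm allow only a bound.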
